A study of Mus musculus with 4 samples.

Results

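The genes described here are those that move dietary sugar across the intestinal epithelium and those that handle or release it inside the cell. They were chosen by name: Slc5a1, Slc2a5 and Slc2a2 (transport), Khk (fructose), Galk1 and Galt (galactose), and Pck1, Fbp1, Slc37a4 and G6pc (glucose production). Of the 10 listed genes, 9 were measured, out of 32227 genes in the feature lists, and Galt was not analysed here. Single epithelial cells were sequenced from 2 wild-type (WT) C57BL/6J mice at postnatal day 6, giving 2 jejunal and 2 ileal libraries. Both regions came from each mouse. Replicate 1 is the mouse labelled male, in batch 1, and replicate 2 the mouse labelled female, in batch 2, so mouse, labelled sex and batch cannot be told apart. All animals shared genotype and age, and no treatment is labelled.

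In the suckling intestine, lactose is split at the brush border into glucose and galactose. The sodium-coupled carrier SGLT1 (Slc5a1) takes both up from the lumen, GLUT5 (Slc2a5) takes up fructose, and GLUT2 (Slc2a2) passes sugars on to the blood. Ketohexokinase (Khk) and galactokinase (Galk1) phosphorylate fructose and galactose. PEPCK (Pck1), fructose bisphosphatase (Fbp1) and glucose-6-phosphatase (G6pc), which is served by the glucose-6-phosphate transporter of the endoplasmic reticulum (Slc37a4), carry out steps of gluconeogenesis, the making of glucose from other carbon sources. These enzymes are best known from the liver and kidney and are also found in the small intestine.

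The deposited values were counts of unique molecular identifiers (UMIs), each standing for a captured RNA molecule. The filters kept 30521 cells, between 5722 and 8997 a library. Ileal cells were covered more deeply (library medians of 10916 and 12048 UMIs) than jejunal cells (4689 and 5884), and their median mitochondrial shares were lower (3.61% and 3.74% against 6.37% and 9.94%), so both measures moved with region, and their part in the results is given only through the alternatives below. No cell barcode was shared between any pair of libraries. By Xist and the Y-linked Eif2s3y, all 4 libraries went against their sex labels, and no value below uses the labelled sex. Enterocyte-like cells made up 6295, 7722, 7474 and 4689 of the cells (ileum 1, jejunum 1, ileum 2, jejunum 2), and stem/progenitor-like cells 356, 408, 369 and 377. All 12 enterocyte markers were detected in every library. Their summed level in enterocyte-like cells, in CPM (UMI counts scaled to the same total in every library), was 18414 and 22205 for ileal against 42679 and 43897 for jejunal libraries, and its part in the results was not tested. The 9 goblet cell markers summed to 187 and 160 CPM in ileal and 76.9 and 67.0 CPM in jejunal enterocyte-like cells, with 1 marker at 0 in 1 library, and their part was not tested either. The p-values measure the spread between these 2 mice, with their labelled sex and batch.

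To compare libraries of unequal depth, each cell was thinned to 2000 UMIs and shallower cells were left out (35, 537, 185 and 153 enterocyte-like cells, in the order above). Levels below are CPM over these thinned cells. Tests used the unthinned UMI sums of each library, and a negative log2 fold change means lower in the ileum. The reference sequences of the promoters are shown for 3 genes: Slc2a5 and Pck1, the genes called between the regions in enterocyte-like cells, and G6pc, whose enzyme releases free glucose. Each is the 250 bases before the start site in RefSeq (GRCm38.p6, plus strand). Capitals mark matches, on either strand, to 7 motifs searched. These were the TATA box, spelled TATAAA, and the cyclic AMP response element (CRE) half-site, spelled ACGTCA. The HNF1 half-site was spelled GTTAAT and the nuclear receptor half-site AGGTCA. For the E-box the letters searched were CACGTG, for the GATA site they were AGATAA and for the CDX site TTTATG. No marked matches overlapped.
Slc2a5, chr4:150119094-150119343: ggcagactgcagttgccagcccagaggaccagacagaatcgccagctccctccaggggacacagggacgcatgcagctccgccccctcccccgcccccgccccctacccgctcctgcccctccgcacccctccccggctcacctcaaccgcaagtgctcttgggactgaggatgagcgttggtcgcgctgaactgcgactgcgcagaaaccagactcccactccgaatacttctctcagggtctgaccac
Pck1, chr2:173152823-173153072: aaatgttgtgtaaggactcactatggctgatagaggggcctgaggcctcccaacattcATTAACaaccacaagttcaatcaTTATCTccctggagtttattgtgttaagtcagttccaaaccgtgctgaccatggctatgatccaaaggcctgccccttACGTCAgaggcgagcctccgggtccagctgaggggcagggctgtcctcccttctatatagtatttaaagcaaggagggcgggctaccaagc
G6pc, chr11:101367466-101367715: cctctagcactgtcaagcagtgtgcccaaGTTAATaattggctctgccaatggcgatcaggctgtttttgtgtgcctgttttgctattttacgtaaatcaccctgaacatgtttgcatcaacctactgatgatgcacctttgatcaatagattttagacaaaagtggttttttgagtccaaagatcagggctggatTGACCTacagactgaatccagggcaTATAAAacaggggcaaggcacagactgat
The Pck1 window held the cyclic AMP half-site starting 91 bases before the start, the HNF1 half-site at 192 and the GATA site at 169. G6pc held the TATA box at 29 bases, the nuclear receptor half-site at 54 and the HNF1 half-site at 221. None of the 7 motifs matched in the Slc2a5 window. Of 27025 promoter windows of this length, 6.56% held the cyclic AMP half-site, 6.52% the HNF1 half-site, 13.0% the TATA box, 13.8% the nuclear receptor half-site, 10.3% the GATA site, 6.05% the E-box and 11.1% the CDX site. Such matches describe letters only, and no binding was measured.

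The first question was how sugar genes differ between ileal and jejunal enterocytes at this age. All 9 genes had a lower fitted level in the ileum than in the jejunum of the enterocyte-like cells, and 2 passed the test, the fructose carrier gene Slc2a5 and the gluconeogenic Pck1. Across all 19609 genes tested, 1318 were called, 6.72%. The median log2 fold change was -0.74 over the 9 genes and -0.01 over all genes tested. At equal depth, 8 of the 9 genes had both ileal libraries below both jejunal ones, Galk1 being the exception. The same held for 23.9% of all genes tested by their unthinned sums. In bulk sums of a class, fewer cells with the RNA and less RNA per cell cannot be told apart, so the share of cells with a UMI stands beside the levels of the transporters and of Pck1.

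**Figure D1:**
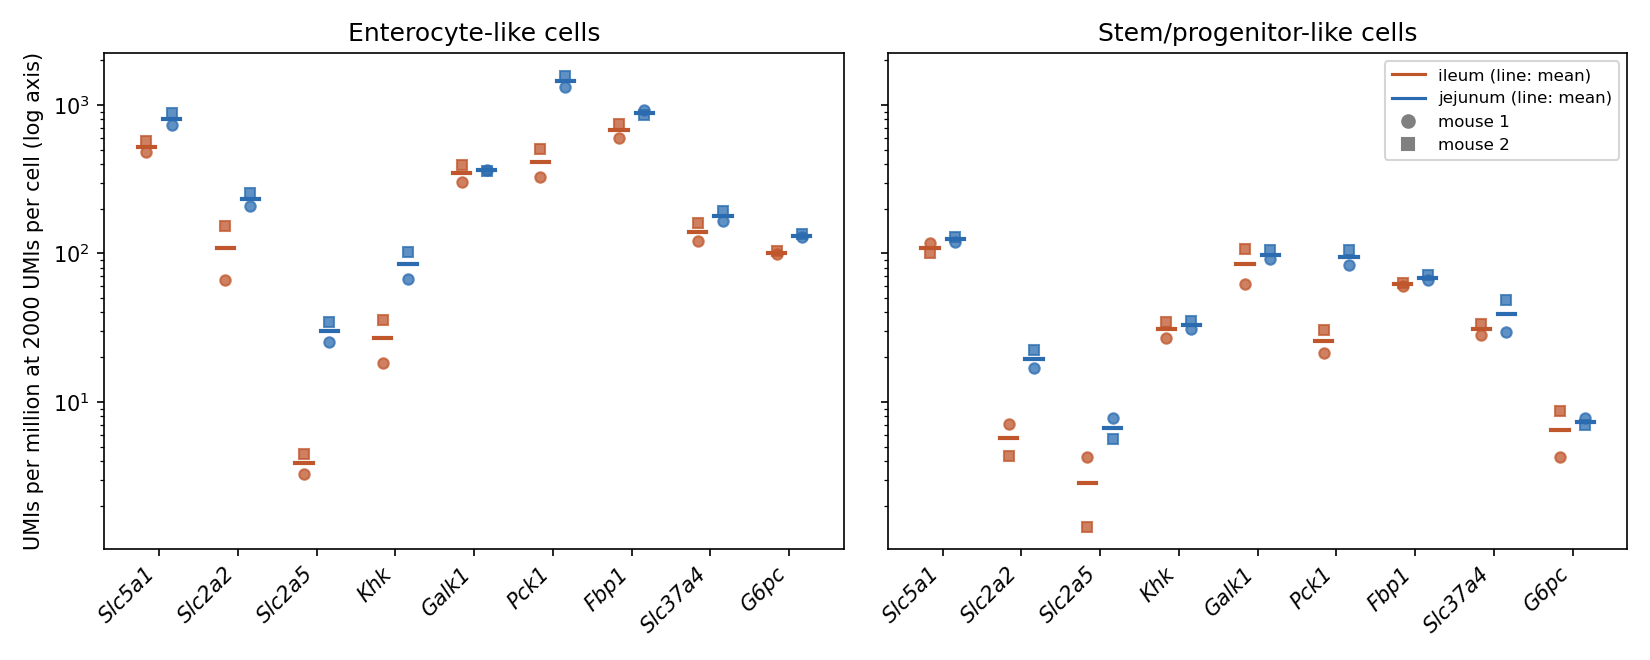
Level of each gene in CPM (log axis) at 2000 UMIs per cell, in enterocyte-like (left) and stem/progenitor-like cells (right). Points are libraries, circles mouse 1 and squares mouse 2, and lines are means of 2 libraries. In enterocyte-like cells the 2 jejunal points of Slc2a5 (25.4 and 34.7) lie well above the ileal ones (3.27 and 4.46), while those of Galk1 lie between the ileal ones.

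Among the carriers of the brush border, Slc5a1 (ENSMUSG00000011034) was at 478 and 569 CPM in ileum replicates 1 and 2 and at 727 and 885 in jejunum replicates 1 and 2. The means were 523 ± 63.98 and 806 ± 112 (SD, n = 2 libraries), and the regions did not overlap. The SGLT1 transcript was seen in most enterocyte-like cells of every library, with shares of thinned cells between 59.97% in ileum replicate 1 and 81.2% in jejunum replicate 2 (unthinned 92.3% and 95.4%). The log2 fold change was -0.74 ± 0.19 (SE, adjusted p = 0.0794), lower in the ileum in both mice, which did not pass the test. Of 16 alternatives tried it passed in 3, among them the mouse as a block (log2 fold change -0.74, adjusted p = 0.0207). Without jejunum replicate 1, a fit that left 1 jejunal library, the log2 fold change was -0.89.

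Slc2a5 (ENSMUSG00000028976) was at 3.27 and 4.46 CPM in ileal libraries and at 25.4 and 34.7 in jejunal libraries. Both jejunal libraries thus stood several times above both ileal ones, and the means were 3.87 ± 0.837 and 30.1 ± 6.59 (SD, n = 2). The transcript was rare everywhere. A UMI was found in 0.655% (exact 95% interval 0.470% to 0.887%) and 0.892% (0.689% to 1.14%) of thinned ileal cells against 4.82% (4.33% to 5.34%) and 6.59% (5.89% to 7.35%) of jejunal cells. Without thinning, the shares were 2.99% and 5.02% against 14.2% and 24.5%, although the jejunal cells were shallower. The level in the ileum was 10.1-fold lower (log2 fold change -3.34 ± 0.41, adjusted p = 0.0230), with -3.47 in mouse 1 and -3.21 in mouse 2. Without ileum replicate 1 the log2 fold change was -2.93, and the call was lost in that fit, which left 1 ileal library. With mitochondrial shares under 10% the log2 fold change was -3.35 (adjusted p = 0.0190).

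The basolateral carrier gene Slc2a2 (ENSMUSG00000027690) was at 66.5 and 153 CPM in ileal libraries and at 210 and 256 in jejunal libraries. The 2 ileal libraries were far apart, and the higher of them still lay below both jejunal ones. A UMI was found in 11.9% and 25.2% of thinned ileal cells and in 33.1% and 38.5% of jejunal cells (unthinned 46.2% and 66.6% against 62.6% and 71.4%). The log2 fold change of -1.19 ± 0.40 (adjusted p = 0.128) did not pass the test, and it was -1.66 in mouse 1 against -0.88 in mouse 2. It passed in 3 of 16 alternatives tried, among them the mouse as a block (-1.29, adjusted p = 0.0267). Without ileum replicate 2, a fit that left 1 ileal library, the log2 fold change was -1.90. An annotated gene, 1700112D23Rik, lies antisense to Slc2a2, and whether counting used the strand is not given in the sources used here.

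Khk (ENSMUSG00000029162), the first step of fructose use, followed the direction of Slc2a5. Its level was 18.2 and 35.9 CPM in ileal libraries and 67.2 and 102 in jejunal libraries, and the regions did not overlap. The means were 27.0 ± 12.5 and 84.6 ± 24.6 (SD, n = 2). The log2 fold change was -1.75 ± 0.38 (adjusted p = 0.0560), with -1.95 in mouse 1 and -1.59 in mouse 2, just outside the threshold. Khk passed in 7 of 16 alternatives tried. Among these were the mouse as a block (-1.79, adjusted p = 0.00667) and cells thinned to 2000 UMIs (-1.83, adjusted p = 0.0288). The log2 fold change was -2.02 without jejunum replicate 1 and -2.31 without ileum replicate 2, fits that left 1 library in that region.

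Galk1 (ENSMUSG00000020766), the first step of galactose use, was the gene with the smallest difference. It stood at 302 and 393 CPM in ileal libraries and at 366 and 359 in jejunal libraries, with both jejunal values inside the range of the ileal ones. The log2 fold change was -0.11 ± 0.19 (adjusted p = 0.749), and the mice went opposite ways, -0.33 in mouse 1 and 0.13 in mouse 2. With library totals as the only scaling it was 0.0001, and without ileum replicate 1 it was 0.12.

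Of the glucose production genes, Pck1 (ENSMUSG00000027513), which makes phosphoenolpyruvate from oxaloacetate, differed most. It was at 327 and 503 CPM in ileal libraries and at 1310 and 1577 in jejunal libraries. The means were 415 ± 125.0 and 1444 ± 188 (SD, n = 2), with no overlap. A Pck1 UMI was present in 40.0% and 54.3% of thinned ileal cells and in 88.6% and 93.2% of thinned jejunal cells (unthinned 77.2% and 84.5% against 95.5% and 98.5%). The level in the ileum was 3.58-fold lower (log2 fold change -1.84 ± 0.26, adjusted p = 0.0262), with -2.01 in mouse 1 and -1.68 in mouse 2. Without ileum replicate 1 the change was -1.56, and this call was lost too in that fit. With mitochondrial shares under 10% it was -1.84 (adjusted p = 0.0210).

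The 3 genes of the later steps had smaller differences. Fbp1 (ENSMUSG00000069805) was at 601 and 746 CPM in ileal libraries and 927 and 851 in jejunal libraries, a log2 fold change of -0.48 ± 0.18 (adjusted p = 0.153). Its jejunal mean of 889 ± 54.2 (SD, n = 2) was 1063 among cells with a mitochondrial share under 10%, so its level moved with that share. Slc37a4 (ENSMUSG00000032114) was at 121 and 159 in ileal libraries and 165 and 192 in jejunal libraries (-0.48 ± 0.21, adjusted p = 0.206). G6pc (ENSMUSG00000078650) was at 98.4 and 104 in ileal libraries and at 129 and 134 in jejunal libraries, with means of 101 ± 3.81 and 132 ± 3.59 (SD, n = 2). Its log2 fold change of -0.58 ± 0.13 (adjusted p = 0.0564) did not pass, and G6pc passed in 4 of 16 alternatives tried. Among these were the mouse as a block (-0.58, adjusted p = 0.0337) and mitochondrial shares under 10% (-0.69, adjusted p = 0.0406).

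With the mouse as a block, 6 of the 9 genes passed in enterocyte-like cells, and the calls over all genes rose from 1318 to 2680. Over all kept cells, with no classes drawn, 1529 of 20358 genes were called (7.51%), and Slc2a5 (log2 fold change -3.13 ± 0.37, adjusted p = 0.0188) and Pck1 (-1.73 ± 0.25, adjusted p = 0.0242) were the members called. Both kept the call without ileum replicate 1 there (adjusted p = 0.0265 and 0.0373). Blocked by mouse, 5 of the 9 passed over all kept cells.

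**Figure D2:**
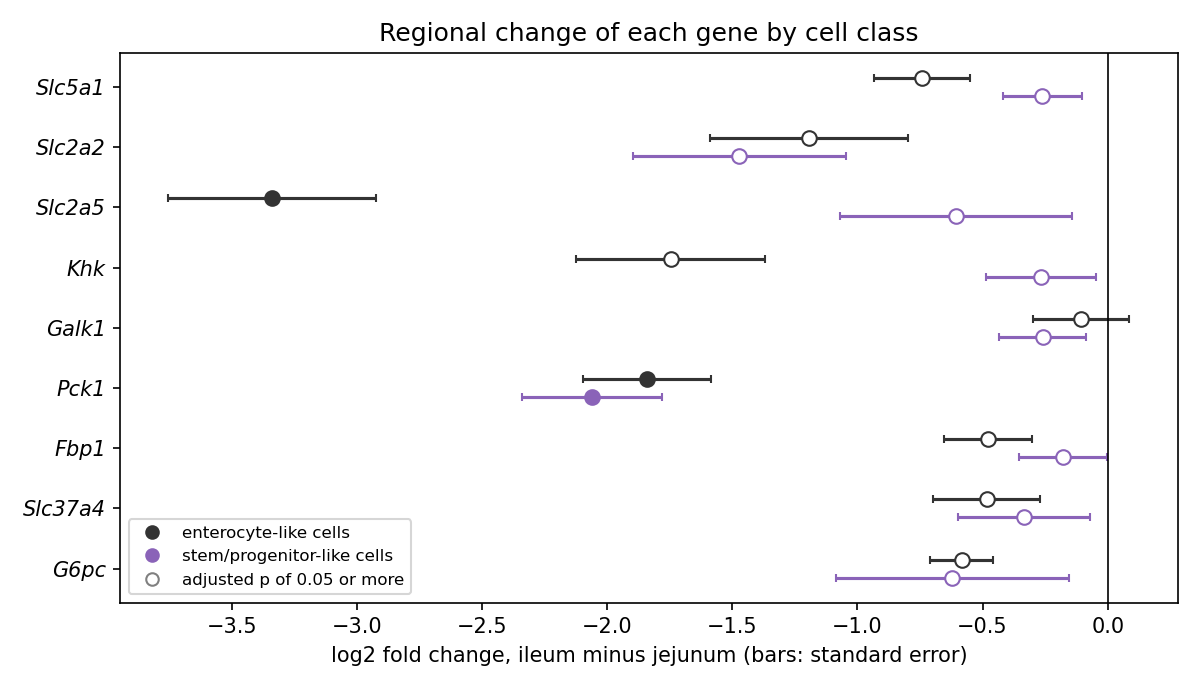
Log2 fold change of the ileum against the jejunum for each gene, with its standard error as bars, in enterocyte-like (black) and stem/progenitor-like cells (purple). Filled points had an adjusted p under 0.05. Slc2a5 lies at -3.34 in enterocyte-like and at -0.61 in stem/progenitor-like cells, while the points of Pck1 lie at -1.84 and -2.06.

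The second question was whether these genes were set apart by region before differentiation, in the stem/progenitor-like cells. This class is known by Olfm4, Lgr5 and Mki67, which were among its leading genes. All 9 genes were lower there than in enterocyte-like cells in both jejunal libraries. Pck1 was at 21.2 and 30.3 CPM in ileal libraries and 84.0 and 106 in jejunal libraries. Slc2a2 was at 7.06 and 4.34 against 16.8 and 22.3, from 5 and 3 against 13 and 16 thinned UMIs. G6pc was between 4.24 and 8.67 in all 4 libraries, from 3 to 6 thinned UMIs each. Pck1 and Slc2a2 kept both ileal libraries below both jejunal ones, as did Slc5a1, Slc2a5 and Fbp1. Khk, Galk1, Slc37a4 and G6pc overlapped. The share of all genes that separated this way in the class was not computed.

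In the test of the stem/progenitor-like sums, 219 of 12053 genes were called (1.82%), and Pck1 was the member called (log2 fold change -2.06 ± 0.28, adjusted p = 0.00230), with the adjusted p between 7.98e-20 and 0.0258 over the alternatives tried. The 12 enterocyte markers moved the same way in this class, with a summed level of 2467 and 3069 CPM in ileal against 4980 and 6330 CPM in jejunal libraries and none at 0, and their part in the call was not tested. Slc2a2 had a log2 fold change of -1.47 ± 0.43 (adjusted p = 0.129). It passed in 4 of 16 alternatives, among them the mouse as a block (-1.50, adjusted p = 0.0384). Without ileum replicate 2, a fit that left 1 ileal library, the Slc2a2 change was -2.38. Khk was at 26.8 and 34.7 CPM in ileal libraries and 31.0 and 34.9 in jejunal libraries of these cells, with overlap, and its log2 fold change was -0.27 ± 0.22 (adjusted p = 0.684). Slc2a5 rested on 3 and 1 thinned UMIs in ileal and on 6 and 4 in jejunal libraries, and on 12 and 7 against 19 and 17 UMIs before thinning, with a log2 fold change of -0.61 ± 0.46 (adjusted p = 0.659).

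Free RNA from broken enterocytes can enter any droplet. Cells with immune markers were therefore set beside the stem/progenitor-like cells. A Pck1 UMI was found in 2 of 10 and 2 of 10 thinned ileal ones (20.0%, exact 95% interval 2.52% to 55.6%). Among jejunal ones it was found in 4 of 18 and 1 of 12 (22.2%, 6.41% to 47.6%, and 8.33%, 0.211% to 38.5%). Unthinned, these shares were 40.0%, 18.2%, 36.8% and 35.7% (ileum 1 and 2, jejunum 1 and 2). In stem/progenitor-like cells they were 4.24%, 5.78%, 14.7% and 17.0% thinned and 10.4%, 12.2%, 28.9% and 46.7% unthinned, in the same order. The median depths before thinning were 7762, 3475, 5258 and 6530 UMIs for the immune-marked cells and 5191, 4851, 5036 and 7092 for the stem/progenitor-like cells. The stem/progenitor-like shares thus lay at or below the immune-marked ones except in jejunum replicate 2, within wide intervals. The level in the immune-marked cells, from 1 to 4 UMIs a library, was 100 and 100 CPM in ileal and 111 and 41.7 CPM in jejunal libraries. The cluster of the immune-marked cells also held enterocyte markers, summed to 11832 and 12084 CPM in ileal and 19316 and 16247 CPM in jejunal libraries. Expression of Pck1 by the stem/progenitor-like cells is not read from these shares. The parts of free RNA in the call and of doublets among the immune-marked cells were not tested.

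Within each library, the 2 classes were also compared by the ratio of their levels, as a description. For Pck1, the enterocyte-like level was 15.4, 15.6, 16.6 and 14.9 times the stem/progenitor-like level (ileum 1, jejunum 1, ileum 2, jejunum 2), nearly the same ratio in all libraries. Fbp1 ranged from 9.90 to 14.1. G6pc ranged from 12.0 to 23.2, over stem/progenitor-like levels that rested on 3 to 6 UMIs a library. The ratio was lower for Slc5a1 (4.08 to 6.81), Galk1 (3.43 to 4.85) and Slc37a4 (3.92 to 5.55). Slc37a4 was at 100 and 50 CPM in ileal and 27.8 and 41.7 CPM in jejunal immune-marked cells, from 1 or 2 UMIs a library. In stem/progenitor-like cells it was at 28.2 and 33.2 CPM in ileal and 29.7 and 48.9 CPM in jejunal libraries. Whether the immune-marked cells make Slc37a4 themselves was not tested, and expression in either class is not read from these levels. Khk was at 0.679 and 1.03 in ileal libraries and 2.17 and 2.92 in jejunal libraries. Slc2a5 was also lower in the ileum, at 0.773 and 3.09 against 3.28 and 6.22, on few stem/progenitor-like UMIs. Slc2a2 was at 9.42 and 35.2 in ileal libraries and 12.5 and 11.4 in jejunal libraries. In the ileum the Khk level in stem/progenitor-like cells was thus about that of enterocyte-like cells, while in the jejunum enterocyte-like cells had the higher level.

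**Figure D3:**
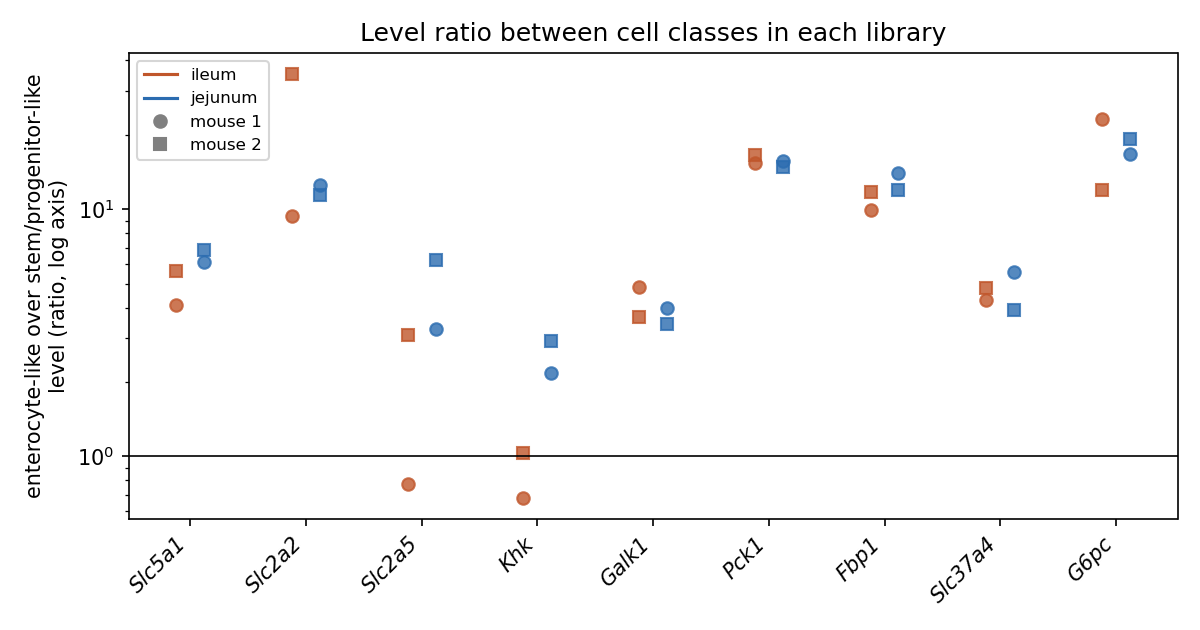
Level in enterocyte-like cells divided by that in stem/progenitor-like cells of the same library (log axis), at 2000 UMIs per cell. The 4 points of Pck1 lie between 14.9 and 16.6. Those of Khk lie between 0.679 and 2.92 and those of Slc2a5 between 0.773 and 6.22, both with the ileal points lower.

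The difference of the regional change between the classes was tested directly as an interaction of region and class over 8 sums. Of 18970 genes, 1531 were called (8.07%), and 2 of the 9 genes were among them, both of the fructose branch. For Khk the log2 change in enterocyte-like cells was 1.49 ± 0.23 below that in stem/progenitor-like cells (interaction -1.49, adjusted p = 0.000189), and it passed under all 11 alternatives tried. For Slc2a5 the interaction was -2.75 ± 0.55 (adjusted p = 0.00242), and with cells thinned to 2000 UMIs, where the counts are few, it was -1.87 (adjusted p = 0.336). For Pck1 it was 0.20 ± 0.22 (adjusted p = 0.669) and for Slc2a2 0.30 ± 0.33 (adjusted p = 0.671). With clusters formed without the members, Slc5a1 (-0.62, adjusted p = 0.0411) and Fbp1 (-0.72, adjusted p = 0.0134) passed as well. With the unnamed cluster led by Celf2 counted as stem/progenitor-like, an alternative chosen after seeing the data, Pck1 passed at 0.82 (adjusted p = 0.00950).

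Enteroendocrine-like cells, the hormone-secreting cells led by Chga, Chgb and Sst, numbered 45 to 72 thinned cells per library. Slc5a1 was at 83.3 and 112 CPM in ileal libraries and 127 and 66.7 in jejunal libraries of this class, overlapping between the regions and below every enterocyte-like value. Slc2a5 was found in 2 and 2 thinned cells of the ileum and 3 and 3 of the jejunum. In ileum replicate 1 that was 2.78% (2.74% unthinned, exact 95% interval of the thinned share 0.338% to 9.68%), against 0.655% of enterocyte-like cells. In ileum replicate 2 it was 2.99% (5.63% unthinned, 0.364% to 10.4%), against 0.892%. Both shares lay above the enterocyte-like ones, on 2 cells each, and both intervals included those. No test was made. Pck1 was seen in 13.4% to 26.7% of these thinned cells (unthinned 15.5% to 41.3%), against 8.33% to 22.2% of the thinned immune-marked cells. Fbp1 was at 201 and 134 CPM in ileal and at 76.3 and 33.3 CPM in jejunal libraries of the class. It was higher in both ileal libraries, from 29 and 18 against 9 and 3 UMIs and with no test. At 1000 UMIs a cell its levels overlapped, at 205 and 98.6 against 104 and 130 CPM. Unthinned levels were 152 and 108 against 88.6 and 90.5 CPM. Unthinned shares of cells with an Fbp1 UMI overlapped, at 27.4% and 26.8% against 22.4% and 28.3%. In immune-marked cells Fbp1 was at 200.0 and 0 CPM against 55.6 and 0 CPM. The intervals cover counting error only.

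Within the enterocyte-like class, 12 of the 15 clusters held at least 20 thinned cells of every library. In each of these 12, both ileal libraries lay below both jejunal ones for Slc5a1, Slc2a2, Slc2a5, Khk, Pck1 and G6pc. The same held in 11 for Fbp1, in 5 for Slc37a4 and in 2 for Galk1. The share of all genes that separated this way was not computed for single clusters. Over the whole enterocyte-like class, by unthinned sums, it was 23.9%. The jejunal mean of Pck1 was between 2.33 and 7.59 times the ileal mean in these clusters, and that of Slc2a5 between 4.26 and 22.05 times. Cells of 1 library are not independent replicates, and the genes that formed the clusters include Slc2a2, Pck1, Fbp1 and G6pc, so these are descriptions without a test. Of the other 3 clusters, the one led by Reg3g and Reg3b was almost wholly ileal, with 603 and 502 ileal and 7 and 2 jejunal cells.

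The genes were not spread alike over the enterocyte-like clusters. Fbp1 varied most, from 192 CPM in the cluster led by Snhg20, Celf2 and Peak1 to 1228 in that led by Apcdd1, Leap2 and Nr0b2 (means of 4 libraries), a 6.38-fold range. Slc2a2 varied 3.64-fold and G6pc 3.24-fold, and both were also lowest in the cluster led by Snhg20, at 68.1 and 52.4. Khk had its highest mean, 88.6, in that same cluster. That cluster had a median of 3994 UMIs per cell and a median mitochondrial share of 10.6%, against 13186 and 3.58% in the cluster led by Apcdd1. Pck1 (1.81-fold), Slc5a1 (1.55-fold) and Slc37a4 (1.48-fold) had narrower ranges.

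**Figure D4:**
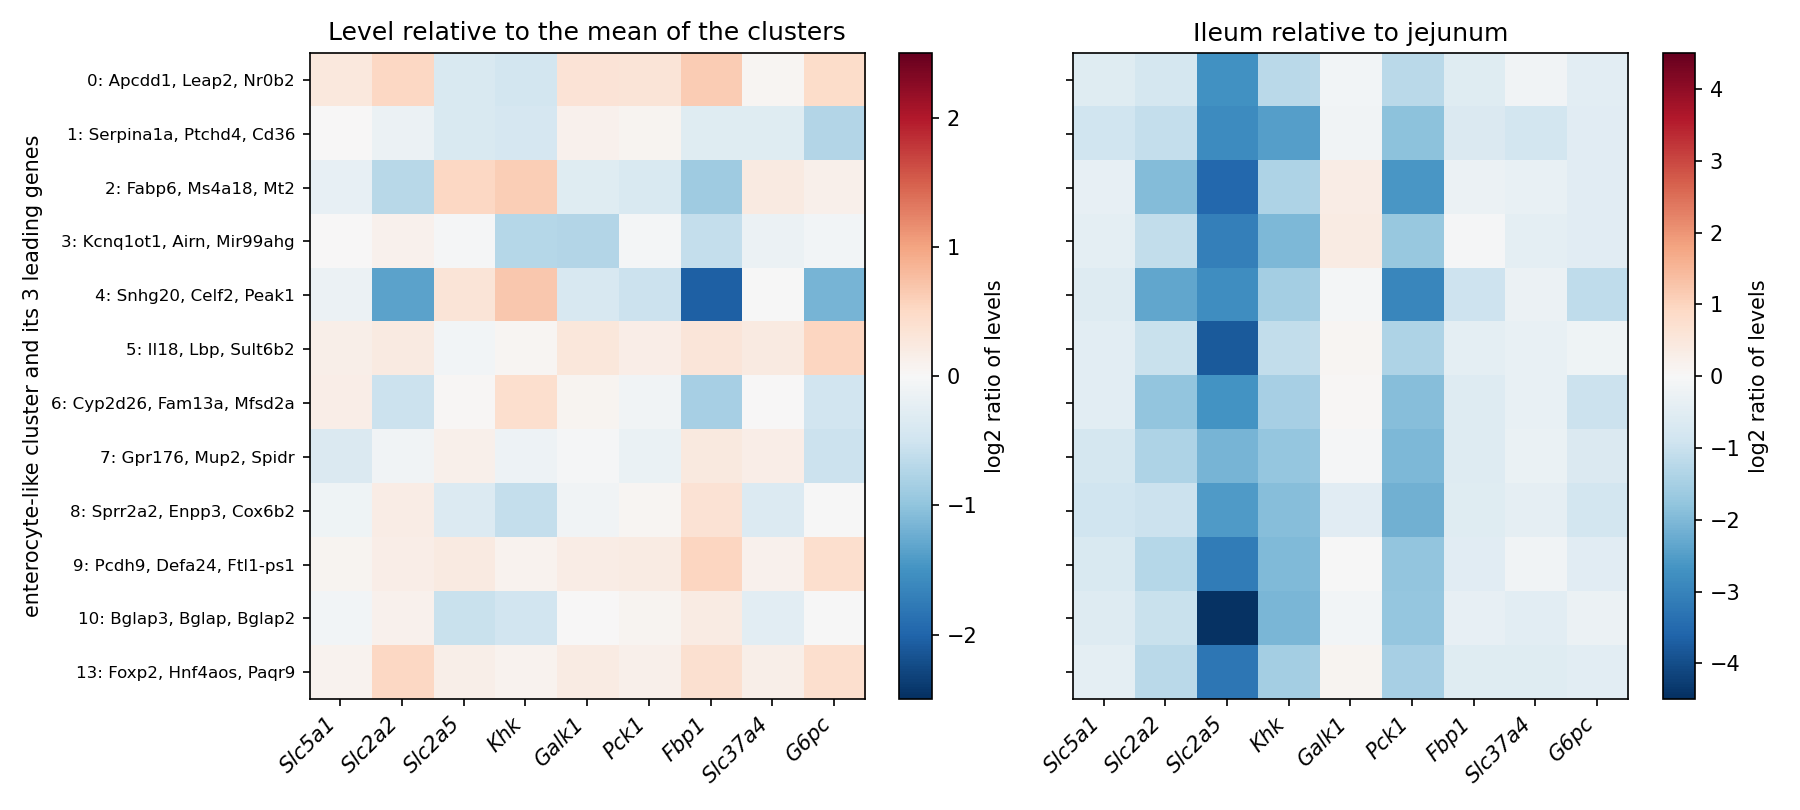
Heat maps over the 12 enterocyte-like clusters with all libraries, each named by its number and 3 leading genes. The left map shows the log2 ratio of the level to the mean of the clusters, and the right map the log2 ratio of the ileal to the jejunal mean. Fbp1, Slc2a2 and G6pc have their lowest means and Khk its highest in cluster 4, and the jejunal means of Slc2a5 and Pck1 are above the ileal ones in all 12 clusters.

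A cluster left unnamed, led by Nt5e, a marker of the villus tip, held 1468 cells. There the ileal and jejunal means were 183 and 1441 CPM for Pck1, 318 and 671 for Slc5a1, 49.8 and 181 for Slc2a2 and 304 and 668 for Fbp1. All 9 genes, Galk1 included (232 and 393), had both ileal libraries below both jejunal ones in this cluster. The share of all genes that did so in it was not computed, so this count is not read as particular to the 9 genes. Counting it as enterocyte-like, an alternative chosen after seeing the data, left the number of members called at 2. Marker sums were taken over this cluster and the other unnamed one together. There 6 villus tip genes summed to 1354 and 1109 CPM in ileal and 826 and 866 CPM in jejunal libraries, and 9 goblet markers to 609 and 520 CPM against 162 and 154 CPM, with 1 marker at 0 in 3 libraries. Their part in the differences was not tested. In enterocyte-like cells the villus tip genes summed to 1058 and 965 CPM in ileal and 1160 and 1087 CPM in jejunal libraries.

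Between cells of the same class, the variance of the thinned count was divided by its mean. Where cells differ, this ratio rises with the mean for the same unevenness. Genes or regions of unlike level are therefore not compared by it. A value of 1 is that of random sampling. In enterocyte-like cells it was 1.56 and 1.53 for Pck1 in ileal libraries and 1.37 and 1.23 in jejunal ones. Fbp1 had 1.36 and 1.39 in ileal libraries and 1.55 and 1.60 in jejunal libraries. Slc37a4, at a lower level than Pck1 and Fbp1, was between 0.987 and 1.02 in all 4 libraries, close to the value of random sampling.

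Genes with the most similar pattern were sought over 81 sums of a library and a cluster by Pearson correlation of log2(CPM + 5). The sums share libraries and depth, so the correlations are descriptions. Pck1 was most like Agpat3 (r = 0.98), Lct (0.96), which encodes lactase, and Gda (0.96). Slc2a2 was most like Leap2 (0.95), Pck1 (0.94) and Lrat (0.94), and Slc5a1 like Rab1a (0.95), Acot4 (0.95) and Acadl (0.94). Slc2a5 was closest to Cyp2d26 (0.92), Dhrs1 (0.92) and Fam13a (0.92), and among the genes closest to Khk were Acot1 (0.93) and Acaa2 (0.90). Among the genes nearest to Galk1 were Sephs2 (0.95) and Ass1 (0.95), and Fbp1 was nearest to Scnn1a (0.95), Nipa2 (0.95) and Tmem184a (0.94). Slc37a4 was nearest to Mogat2 (0.94), Acot4 (0.91) and Hkdc1 (0.91), and G6pc to Acsl5 (0.95), Rab1a (0.93) and Pls1 (0.93). Among the members, Slc2a5 and Khk correlated at 0.75 with each other, with Pck1 at 0.62 and 0.57 and with Galk1 at 0.08 and 0.29. Other member pairs had higher values, such as 0.94 for Slc2a2 and Pck1 and 0.90 for Fbp1 and G6pc.

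The wider pathway was read from lists of 131 other sugar genes, of which 129 were in the feature lists and 126 entries were tested in enterocyte-like cells. Of these entries 6 were higher and 6 lower in the ileum by the test, 9.52% against 6.72% of all genes. The 17 other glucose production genes had 14 values below 0, with a median of -0.55 against -0.01 over all genes, and 2 were called, both lower. Gpt, alanine aminotransferase, which feeds alanine carbon into pyruvate, was at 5.35 and 12.5 CPM in ileal libraries and 172 and 254 in jejunal libraries (log2 fold change -4.68 ± 0.52, adjusted p = 0.0194). Gk, glycerol kinase, was at 171 and 180 CPM against 313 and 385 (-1.11 ± 0.18, adjusted p = 0.0308). Both were lower in the ileum in both mice.

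Among 6 sugar hydrolases, edgeR called 2, both higher in the ileum. Of the fitted values of the 6, 3 were above and 3 below 0, with a median of -0.47. DESeq2 called 4 of the 6, against 3042 of all 19609 genes. Mgam, the brush border maltase-glucoamylase, was at 600 and 454 CPM in ileal libraries and 202 and 170 in jejunal libraries (log2 fold change 1.39 ± 0.17, adjusted p = 0.0216). Gaa, the lysosomal acid alpha-glucosidase, was at 275 and 300 against 141 and 118 (1.05 ± 0.15, adjusted p = 0.0268). Of 15 other sugar transporters tested, edgeR called 2, both higher in the ileum, and DESeq2 called 3. In edgeR 4 had an unadjusted p under 0.05, and the share of all genes under that limit was not computed. Of the fitted values, 7 were above and 8 below 0. Slc2a1 (GLUT1) was at 29.3 and 26.5 CPM against 8.13 and 11.6 (1.38 ± 0.22, adjusted p = 0.0316), and Slc2a4 (GLUT4) lay under 0.4 CPM throughout (2.20 ± 0.45, adjusted p = 0.0498). Lct, which encodes lactase, was lower in the fit and did not pass (-1.81, adjusted p = 0.0749).

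In glycolysis, 28 genes gave 29 entries, since Aldoa has 2, with 2 called lower and 2 higher. Eno1b (-1.50 ± 0.23, adjusted p = 0.0283) and Pfkm (-1.07 ± 0.19, adjusted p = 0.0402) were lower in the ileum, and Aldoc (1.42 ± 0.24, adjusted p = 0.0360) and Ldhd (1.01 ± 0.20, adjusted p = 0.0454) higher. Eno1b is a near-identical copy of Eno1, so its reads are uncertain. Single genes were called lower in the galactose and UDP-sugar list (Pgm2, -0.72 ± 0.14, adjusted p = 0.0468) and in the glycogen list (Stbd1, -2.07 ± 0.32, adjusted p = 0.0304, under 2 CPM throughout). By edgeR, no gene was called among the 8 other fructose and polyol genes, the 8 of the pentose phosphate pathway and the 24 regulators. DESeq2 called 1, 2 and 5 of them, against 3042 of all 19609 genes. In edgeR, 2, 3 and 8 had an unadjusted p under 0.05, and the share of all genes under that limit was not computed. The medians of these 3 lists were -0.15, 0.30 and -0.05.

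**Figure D5:**
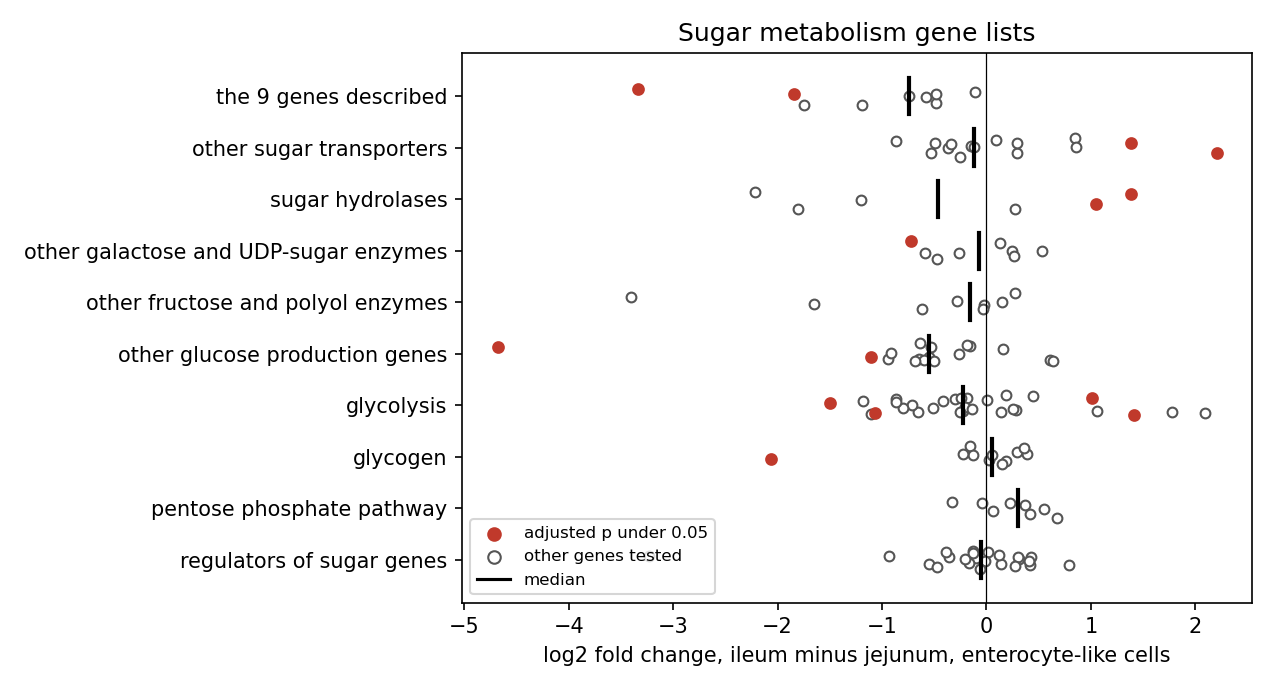
Log2 fold change of the ileum against the jejunum in enterocyte-like cells for the 9 genes described and for 9 lists of other sugar genes. Points are genes, red ones had an adjusted p under 0.05, and black bars are medians. The other glucose production genes lie mostly below 0, with Gpt at -4.68.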

How the data were processed

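Per the labels and the study's methods, the authors released epithelium with EDTA and then dissociated it with dispase. They captured cells with a PIPseq 3′ kit and counted reads with PIPseeker at sensitivity 3. The deposited matrices hold raw UMI counts per gene and called cell (36202 cells, 378810858 UMIs). The submitters' processing notes name GRCm39. Promoters come from a RefSeq table of GRCm38.p6, so only its own coordinates are given. The authors' limits were followed: a gene had to occur in 3 cells, and a cell to hold 1000 to 6000 genes and under 20% mitochondrial UMIs. Seurat 5.3.0 (R 4.3.3) formed 22 clusters from 2000 variable genes with CCA integration (30 dimensions, resolution 1). Clusters were named from marker lists by thresholds set after seeing the data. A cluster stayed unnamed where markers of a different class outnumbered its own among its 10 leading genes or, outside the enterocyte-like class, where none of its own was there. Enterocyte-like clusters, most of the cells, were named by detection of their markers, and several have none among their leading genes. Immune-marked cells are cells of the immune-like cluster with at least 3 UMIs of immune markers. Scrublet (scanpy 1.11.5) marked 1, 1, 1 and 3 cells, far below the 6% expected, so doublets remained.

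For each class, the UMI counts of a library were added up and tested with edgeR 4.0.16 (quasi-likelihood, TMM factors, filterByExpr, region as the only term, Benjamini-Hochberg over all genes tested). Genes with an adjusted p under 0.05 were called. The interaction fit had the library as a block. With 2 libraries per region, permutation cannot go below p = 0.333. Libraries of the same number came from the same mouse, and their deviations from the region means correlated (r = 0.30, 0.26 and 0.24 in enterocyte-like, stem/progenitor-like and all kept cells), so the fit with the mouse as a block is given where it changes a call. On simulated counts for the enterocyte-like comparison (19251 genes), 100% of changes of 2 log2 units and 45% of those of 1 were called, and 98% and 63% in the stem/progenitor-like comparison (11779 genes). Changes were placed only in genes above a low CPM floor. The spread followed the average trend over expression level, with no mouse effect or spread of single genes. The shares therefore do not cover genes with few UMIs or a wider spread. Intervals cover counting error only. Alternatives were DESeq2 1.42.0, other scalings, filters, depths, clusters and libraries left out. Exact 95% intervals are Clopper-Pearson. Named genes are the members, at most the 3 highest and 3 lowest called genes of each pathway list with the same direction in both mice, and the 3 genes most like each member. Some genes that this rule names are not reported here. The members and lists were chosen with earlier results of these data known.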

Additional observations from a re-analysis of the deposited data

Results flagged for a closer look

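The interaction passed the threshold for 2 genes between enterocyte-like and stem/progenitor-like cells in edgeR. For Khk the interaction was -1.49 (log2, adjusted p = 0.000189), where the log2 fold change of the ileum against the jejunum stood at -1.75 for enterocyte-like sums and at -0.27 for stem/progenitor-like sums. For Slc2a5 it was -2.75 (adjusted p = 0.00242), with -3.34 and -0.61, and it did not pass with cells thinned to 2000 UMIs, where the stem/progenitor-like sums held 3 and 1 ileal and 6 and 4 jejunal UMIs. The test itself rested on 12 and 7 ileal and 19 and 17 jejunal UMIs in that class. No group had 4 or more libraries, so single libraries were not tested as outliers.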

How the results depend on the processing

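All counts are of genes or members with an adjusted p under 0.05. With the mouse as a replicate block, 2680 genes and 6 members were called in enterocyte-like cells, 626 and 2 in stem/progenitor-like cells and 2659 and 5 over all kept cells, and the block changed no other call of a member. DESeq2 called 3042 genes and 6 members in enterocyte-like and 3173 and 6 over all kept cells. In stem/progenitor-like cells 588 genes and 2 members were called with no count filter, 135 genes with cells thinned to 2000 UMIs, 351 with clusters formed without the members, and 2 members with the Celf2-led cluster included. Sums thinned to the smallest gave 4 members in enterocyte-like cells. For the interaction, cells thinned to 2000 UMIs gave 674 genes and 1 member, and clusters without the members and resolution 0.5 gave 4 members each. Leaving out 1 library gave 184 to 1826 genes and 0 to 4 members in enterocyte-like cells (184 and 0 without ileum replicate 1), 59 to 218 genes and 1 to 2 members in stem/progenitor-like cells (59 without jejunum replicate 2) and 425 to 1781 genes and 2 to 4 members over all kept cells (425 without ileum replicate 1). With library totals only, 68.1% of calls were higher in the ileum in enterocyte-like cells against 57.7%, and the median of all genes was 0.10 against -0.01. With cells thinned to 2000 UMIs the share was 49.2%, over all kept cells 48.8% against 58.3% and in the interaction 51.9% against 62.3%. Without jejunum replicate 1 it was 49.5% in enterocyte-like and 47.7% over all kept cells. In stem/progenitor-like cells that share was 44.3%, and 54.8% with library totals, 58.4% with clusters without the members, 58.9% at resolution 0.5 and 55.0% without ileum replicate 2.

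Log2 values that changed sign all belonged to genes without a call in that comparison, and the cause was not tested. Galk1 was at 0.0001 with library totals in enterocyte-like cells (-0.37 to 0.12 with a library left out), at 0.0377 with library totals and 0.0218 with no filter over all kept cells (-0.28 to 0.23 with a library left out), and at 0.0284 with clusters without the members in stem/progenitor-like cells. There, Fbp1 was at 0.2411 and Slc37a4 at 0.0003 with those clusters, at 0.2589 and 0.001 at resolution 0.5, and Slc37a4 at -0.6527 to 0.0897 with a library left out. In the interaction, with cells thinned to 2000 UMIs Pck1 was at -0.0695 and G6pc at -0.3322. G6pc was at -0.1726 with mitochondrial shares under 10%, -0.1215 without the highest doublet scores and -0.1333 with sums thinned to the smallest. With clusters without the members Slc2a2 was at -0.2588, Galk1 at -0.1524, Pck1 at -0.3384 and G6pc at -0.3051, and at resolution 0.5 they were at -0.2483, -0.1157, -0.2557 and -0.289.

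Mean levels (CPM) moved by over 1 SD in 17 of 108 values. At 1000 UMIs a cell, Galk1 was at 354.56 in jejunal enterocyte-like cells. In ileal stem/progenitor-like cells Slc5a1 was at 88.206, Slc2a2 at 9.584, Fbp1 at 48.415, Slc37a4 at 34.32 and G6pc at 9.6831, and in jejunal ones Slc2a2 at 25.619, Slc2a5 at 5.1035, Galk1 at 87.683 and Fbp1 at 75.427. Unthinned, Galk1 was at 87.769 there. With mitochondrial shares under 10%, Galk1 was at 376.62, Fbp1 at 1062.6 and G6pc at 152.53 in jejunal enterocyte-like cells, and Slc2a2 at 14.165, Slc2a5 at 3.8788 and Fbp1 at 74.344 in jejunal stem/progenitor-like cells.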
